A study of Rattus norvegicus with 6 samples.

Results

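Among the small RNAs counted in rat primary sertoli cells, 100 rows annotated as piRNA had a mean level after 4-NP at least 2 times that of the controls. The table held 2363 rows, of which 806 were annotated as piRNA and 424 of these had a mean of 10 reads or more over the 6 samples. The 100 members were chosen by the ratio of the mean levels among these 424, where a level is given in CPM with the mature miRNA reads of the same sample as the total. They comprised 21 rows with a catalogue number (named rno_piR) and 79 rows named novel_pir, read here as piRNAs that the authors predicted. The experiment compared 3 control samples with 3 samples exposed for 24 h to 4-NP (4-nonylphenol, an alkylphenol with estrogen-like action) at 0.5 mM. The cells were primary cultures from testes of Sprague-Dawley rats aged 5 to 10 days, and nothing in the sources used here says how many animals went into a culture or whether the samples of a group were separate cultures. The spread between samples may therefore be technical. Controls received no 4-NP, and whether they received its vehicle is not given in the sources used here.

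Sertoli cells are the somatic cells that nurse germ cells in the seminiferous tubule. piRNAs are short RNAs bound by PIWI proteins, slightly longer than miRNAs, and are best known from male germ cells, where they guide the silencing of transposons. Most are cut from long single-stranded transcripts of genomic clusters, so many different piRNAs come from neighbouring stretches of a chromosome. Catalogues of piRNAs were built by sequencing short RNA, and some of their entries also match pieces of tRNA, ribosomal RNA or snoRNA. A row of this kind therefore records reads that match a listed sequence, and does not by itself show binding to a PIWI protein.

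The samples had 20023200 to 23426742 reads on mature miRNAs, so 1 CPM stood for 20.0 to 23.4 reads. Whether reads of the same molecule were merged before counting is not given in the sources used here. Rows predicted by the authors held no count from 1 to 9, so a predicted row listed at 0 may have had up to 9 reads. All 19 listed miRNAs of male germ cells and testis were matched and had reads, and their summed level was 684 to 850 CPM in the controls and 243 to 278 CPM after 4-NP, with 12 of the 19 below and 4 above all controls. The 4 erythroid miRNAs summed to 11.0 to 40.7 CPM in the controls and 59.3 to 631 CPM after 4-NP, with 1 of the 4 above all controls. The 2 endothelial miRNAs summed to 6325 to 7615 and 3234 to 3805 CPM, and the 3 of smooth muscle or myoid cells to 120579 to 136255 and 88379 to 96689 CPM, with 2 of each list below all controls. The 3 myeloid miRNAs (8.05 to 10.5 against 8.36 to 14.1 CPM) and the 3 of striated muscle (14.0 to 19.5 against 13.2 to 14.8 CPM, 1 of them below all controls) overlapped between the groups, and the liver miRNA had 0.0427 to 0.538 against 0.271 to 21.7 CPM. None of these markers was at 0 in all samples. In such bulk samples fewer cells of a type and less RNA per cell cannot be told apart, and the part of other cells in the values below was not tested.

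The members were chosen for their difference between the groups, so their levels are a description and carry no test. By this ratio 23.6% of the 424 piRNA-annotated rows with enough reads were at least 2 times higher after 4-NP. The share was 23.7% of 283 other rows that were neither mature miRNA nor piRNA, and 7.92% of 543 mature miRNAs. Another 56 piRNA-annotated rows were at 0.5 times the control level or less, and 268 lay between these limits and are called steady here. Of the 88 members with reads in at least 1 control, 37 had a ratio under 3, 23 a ratio of 3 to 5, 21 a ratio of 5 to 10 and 7 a ratio of 10 or more. The remaining 12 members were listed at 0 in all 3 controls.

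**Figure D1:**
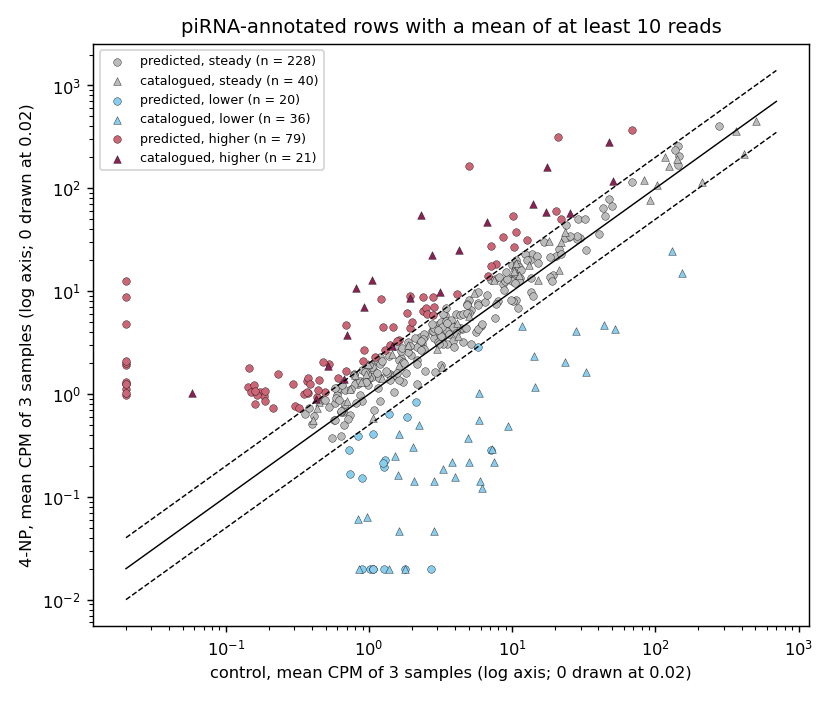
Mean level in the 3 4-NP samples (vertical, CPM, log axis) against the mean level in the 3 control samples (horizontal, CPM, log axis) for the 424 piRNA-annotated rows with a mean of 10 reads or more, each point a row, circles predicted and triangles catalogued. The solid line marks equal levels and the dashed lines the 2-fold limits, and the 100 members are the red and purple points above the upper dashed line, 12 of them at the left edge because they were listed at 0 in all controls.

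The members closest to the limit show how narrow it was. rno_piR_000521 had 37, 37 and 26 control reads against 95, 36 and 61 with 4-NP, a ratio of 2.04 in CPM. novel_pir124 had 33, 42 and 37 against 82, 69 and 62 reads, also a ratio of 2.04. novel_pir264 was at 23, 38 and 28 against 88, 33 and 52 reads with a ratio of 2.06. Just outside, novel_pir198 had 18, 20 and 16 against 38, 23 and 40 reads and novel_pir422 had 93, 74 and 69 against 144, 130 and 162, with ratios of 2.00 (before rounding under the limit) and 1.99. novel_pir444 was next, with 0, 13 and 26 against 27, 26 and 20 reads and a ratio of 1.98. The tighter groups were thus not always inside: novel_pir422 lay just outside with no overlap between its groups.

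All 806 piRNA-annotated rows together had 6080, 6137 and 5317 control CPM against 9235, 6492 and 8187 CPM with 4-NP. Each 4-NP sample was above each control, and the mean was 1.36 times higher (exact permutation test of the log2 levels, two-sided p = 0.1, the smallest that 3 samples against 3 allow). With TMM factors on the mature miRNA sums, as in the edgeR test below, it was 1.35 times higher (exact permutation test, two-sided p = 0.2). The groups were thus not fully separated on that scaling. Of the total in CPM, the 100 members made up 448, 550 and 412 in the controls and 2853, 1688 and 2594 after 4-NP, a ratio of 5.06. The 706 rows that were not members had a ratio of 1.04, which combines changes in both directions. Among them the mean sum of the 268 steady rows went from 4695 to 5467 CPM, a ratio of 1.16. That of the 56 lower rows went from 632 to 77.8 CPM, a ratio of 0.123. Of the members' mean level after 4-NP, the most abundant member took 15.6%, the first 3 took 40.6% and the first 10 took 69.6%. The 79 predicted members held 59.9% and the 21 catalogued members 40.1% of it.

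The 3 predicted members with the most reads had a narrow range across the 4-NP samples, 1.37-fold to 1.47-fold. novel_pir381, the most abundant member, had 1895, 1593 and 1231 control reads against 8157, 6328 and 9449 with 4-NP, which is 68.4 ± 12.8 against 372 ± 57.8 CPM (SD, n = 3 each). novel_pir180 had 763, 311 and 369 reads against 6209, 5547 and 8383, or 20.9 ± 10.3 against 313 ± 60.1 CPM. novel_pir267 was scarce in the controls, with 121, 125 and 98 control reads against 3670, 2705 and 4349 with 4-NP. In each of these 3 rows the lowest 4-NP sample lay far above the highest control, by 3.91 times for novel_pir381, 8.51 times for novel_pir180 and 25.0 times for novel_pir267. The ratio of the means of novel_pir267, 4.99 ± 0.530 against 167 ± 31.8 CPM (SD, n = 3 each), was 33.4, the largest among members with reads in any control.

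A further group of predicted members had moderate levels and narrow spreads. novel_pir126 had 475, 538 and 378 control reads and 1488, 1018 and 1384 with 4-NP, that is 20.2 ± 3.17 against 60.4 ± 8.54 CPM (SD, n = 3 each). novel_pir383 had 282, 227 and 225 against 797, 749 and 878 reads, and its lowest 4-NP sample was 2.99 times its highest control. The rows whose 6 levels were nearest to those of novel_pir381, by Euclidean distance of log2(CPM + 1) after subtraction of the row mean, were novel_pir400 (0.449), novel_pir377 (0.722) and novel_pir91 (0.764). All 3 were members, but the distance includes the group difference that the rule used, so nothing is read from this. novel_pir400 was listed at 0 in all controls, so its distance depends on the 1 added to each CPM. Its ratio was at least 12.3, where novel_pir381 had 5.44. novel_pir377 had 242, 217 and 139 control reads against 775, 542 and 862 with 4-NP, and novel_pir91 had 197, 180 and 114 against 629, 501 and 639. In novel_pir377 and novel_pir91, control sample 3 and 4-NP sample 2 were the lowest of their groups, as they were for novel_pir381.

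Not all predicted members were even. novel_pir298, the fifth most abundant of them, had 170, 265 and 262 control reads against 1871, 236 and 1412 with 4-NP, or 10.2 ± 2.52 against 53.6 ± 37.6 CPM (SD, n = 3 each). Its 4-NP samples spanned a 7.17-fold range in the order sample 1, sample 3, sample 2, and sample 2 was barely above the highest control. novel_pir326, a row of few reads, had 0, 13 and 12 against 66, 10 and 12 reads, so that its groups overlapped. Its ratio was 3.66, and 1.43 without 4-NP sample 1.

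The catalogued members were more uneven. rno_piR_005901, the most abundant of them, had 767, 1706 and 785 control reads against 9934, 2438 and 5844 with 4-NP, or 47.3 ± 23.1 against 279 ± 164 CPM (SD, n = 3 each). rno_piR_005567 had 298, 691 and 222 against 5160, 1265 and 4124 reads, or 17.5 ± 10.8 against 162 ± 88.1 CPM. rno_piR_005595 had 214, 353 and 392 against 2523, 552 and 1483 reads. In each of the 3 rows 4-NP sample 1 was highest, 4-NP sample 3 came next and 4-NP sample 2 was lowest, yet all 4-NP samples were above all controls. rno_piR_001198 followed the same order with 402, 472 and 320 against 1811, 705 and 1294 reads. The rows nearest to rno_piR_005901 by the same distance were rno_piR_005900 (0.491), rno_piR_000194 (0.543) and rno_piR_022904 (0.575). All 3 were again members, from which nothing is read for the same reason. Of these, rno_piR_005900 had 124, 206 and 125 control reads against 1618, 343 and 1133 with 4-NP.

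**Figure D2:**
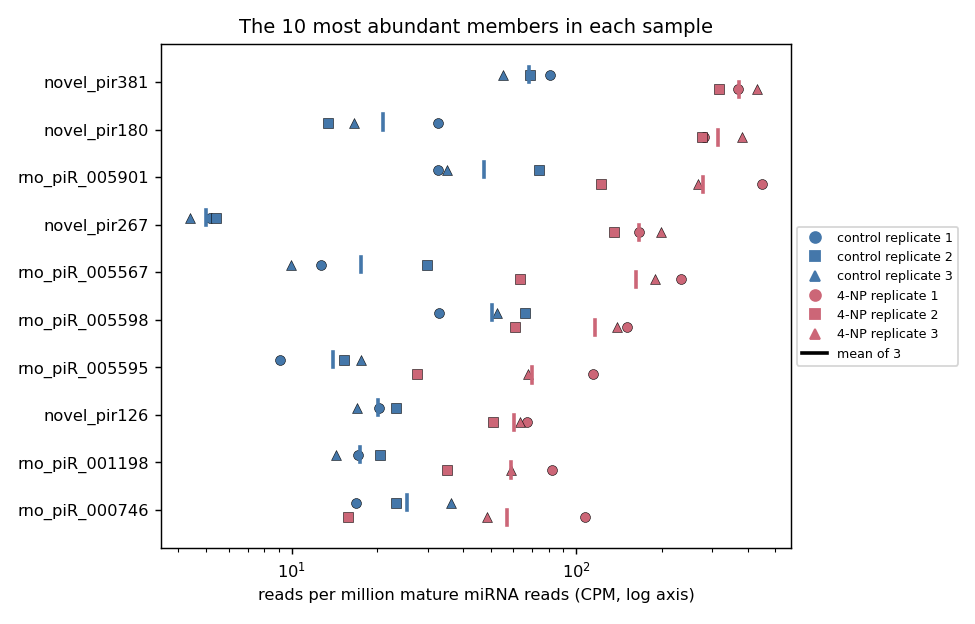
Level (CPM, log axis) of the 10 members with the highest mean after 4-NP, in each of the 6 samples, with controls in blue, 4-NP samples in red, the replicate number given by the marker and the mean of 3 by the vertical bar. The predicted rows (novel_pir) have their 4-NP samples close together, while in the catalogued rows (rno_piR) 4-NP sample 2, the red square, lies toward the controls, among them in rno_piR_005598 and below all of them in rno_piR_000746.

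In some catalogued members the groups overlapped. rno_piR_005598 had 770, 1525 and 1171 control reads against 3322, 1222 and 3044 with 4-NP, so that 4-NP sample 2 was below control sample 2 in CPM. rno_piR_000746 had 395, 537 and 806 against 2367, 317 and 1060 reads, and there 4-NP sample 2 was under every control. Overlap was also seen in rno_piR_005552, rno_piR_005359 and rno_piR_011541, which makes 5 of the 21 catalogued members. For rno_piR_005552 the reads were 49, 125 and 42 against 343, 83 and 214.

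Other catalogued members stood out by their ratio or by 1 sample. rno_piR_001199 had 33, 57 and 67 control reads against 573, 2142 and 712 with 4-NP, a ratio of 24.0, and unlike most catalogued members it was highest in 4-NP sample 2. Without that sample the ratio was 12.7. Its neighbour by number, rno_piR_001198, was lowest in that sample. rno_piR_015914 had 22, 26 and 8 reads against 582, 59 and 63, so its ratio of 13.3 rested mainly on 4-NP sample 1, which was 9.14 times the lowest 4-NP sample, and was 3.60 without it. rno_piR_000194 had 14, 37 and 21 against 522, 83 and 240 reads, and rno_piR_005593 had 42, 81 and 67 against 876, 142 and 465, with 5.69-fold and 5.58-fold ranges among the 4-NP samples. rno_piR_005633 was the steadiest catalogued member in the controls at 21, 23 and 19 reads, against 203, 81 and 170 after 4-NP. rno_piR_031138 was close to absent from the controls, with 1, 2 and 1 reads there and 29, 12 and 26 after 4-NP.

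Among the predicted members, 12 were listed at 0 in all 3 controls, 14 in 2 controls and 14 in 1 control, while 39 had at least 10 reads in each control. novel_pir265 was listed at 0 in every control and had 361, 149 and 313 reads after 4-NP, at least 32.3-fold higher if 9 reads are assumed in each control. novel_pir79 had 157, 183 and 217 reads after 4-NP and novel_pir400 had 107, 67 and 137, both listed at 0 in the controls, which makes them at least 22.2-fold and 12.3-fold higher on the same limit. For the other 9 the bound was 2.51 to 5.39, among them novel_pir274 with 68, 38 and 23 reads and novel_pir187 with 42, 40 and 41. novel_pir129 had reads in a single control, 10 in control sample 2, and 39, 34 and 43 after 4-NP.

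At the other end, 7 predicted members were listed at 0 in 4-NP sample 2. novel_pir93 had reads in 4-NP sample 3 alone, 139 of them, and was listed at 0 in the other 5 samples. novel_pir373 had 61 and 25 reads, novel_pir20 had 14 and 60 and novel_pir386 had 24 and 41 in 4-NP samples 1 and 3, with 0 in every other sample. novel_pir113, novel_pir344 and novel_pir148 had reads in at least 1 control as well, up to 21. With 9 reads in place of each listed 0 of a predicted row, a setting chosen after seeing the data, 93 of the 100 rows still met the ratio.

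The 3 4-NP samples lay above all 3 controls in 78 of the 100 members, 16 of the 21 catalogued and 62 of the 79 predicted. This was so in 34.4% of all 424 piRNA-annotated rows with enough reads, and in 35.1% of the 738 rows tested that were not mature miRNAs. Since the ratio chose the members, nothing is read from the difference. The 22 members with overlap were mostly rows of few reads: among the 50 members with a mean of 50 reads or more, 46 had no overlap.

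The catalogued and predicted members differed in how the 4-NP samples were ordered. The ratio of means did not use the order, but a single high 4-NP sample raises that ratio. Neither order nor spread is therefore independent of the choice of members. In 14 of the 21 catalogued and 20 of the 79 predicted members, 1 4-NP sample held over 50% of the summed 4-NP level. Of the 21 catalogued members, 19 were highest in 4-NP sample 1 and 18 were lowest in 4-NP sample 2, and 18 followed the order sample 1, sample 3, sample 2. Of the 79 predicted members, 32 were highest in 4-NP sample 1, 10 in sample 2 and 37 in sample 3, and 20 followed the order of the catalogued members. The steady rows followed that order in 20 of 40 catalogued and 55 of 228 predicted rows. The level in 4-NP sample 2, divided by the mean of samples 1 and 3, had a median of 0.340 in the catalogued members (range 0.202 to 3.66) and 0.869 in the predicted members (range 0 to 2.28). It was 0.689 in the steady catalogued rows and 0.928 in the steady predicted rows. The highest 4-NP sample was a median of 3.69 times the lowest in the catalogued members and 1.56 times in the 72 predicted members with reads in all 4-NP samples. These are counts of rows within the same 3 samples and not tests, since the rows share their libraries.

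**Figure D3:**
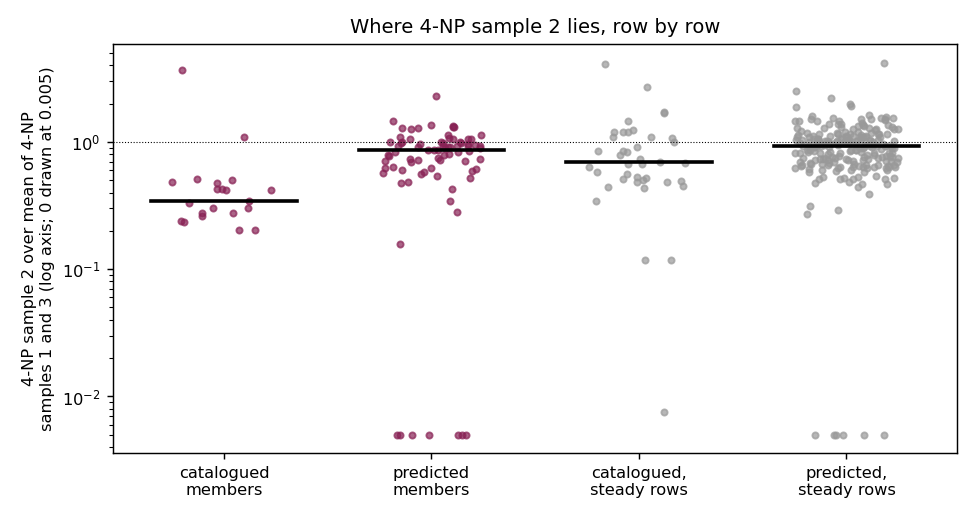
Level in 4-NP sample 2 divided by the mean level in 4-NP samples 1 and 3 (vertical, log axis, values of 0 drawn at 0.005) for catalogued and predicted members and for the steady rows of both kinds, each point a row and each bar the median. The catalogued members lie mostly under 0.5 with a median of 0.340, while the predicted members centre on 0.869, near the steady predicted rows at 0.928.

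The controls were ordered differently in the 2 kinds of members as well. Of the 21 catalogued members, 15 were highest in control sample 2, 6 in control sample 3 and 0 in control sample 1. Of the 79 predicted members, 29 were highest in control sample 2 and 10 in control sample 3. The other 40 were the 12 listed at 0 in all 3 controls, which have no highest control, and rows highest in control sample 1. The summed level of the catalogued members was 142, 265 and 192 control CPM against 1420, 491 and 951 CPM with 4-NP. That of the predicted members was 306, 285 and 220 CPM against 1433, 1197 and 1643 CPM.

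Reads on tRNA followed the same order over the 6 samples as the catalogued members. The 2 tRNA rows, for the RNAs that carry amino acids to the ribosome, had together 282, 471 and 356 control CPM against 2099, 784 and 1673 CPM with 4-NP. Both sums were lowest in control sample 1 and highest in 4-NP sample 1. Catalogued members per tRNA read ranged from 0.503 in control sample 1 to 0.676 in 4-NP sample 1, a 1.34-fold range, while per mature miRNA read their range was 10.0-fold. The members were chosen by level per mature miRNA read, so a wide range on that scale comes with the choice. From the contrast with that scale nothing is read. Against ribosomal RNA, snoRNA, snRNA and repeats the range of the catalogued members was 3.44-fold, 4.08-fold, 4.97-fold and 6.67-fold. For the predicted members the range per tRNA read was 2.52-fold, and 7.47-fold per mature miRNA read. Their range per ribosomal RNA read was 3.08-fold and per repeat read 3.71-fold. Per snoRNA read it was 6.52-fold. Per snRNA read it was 9.59-fold, wider than per mature miRNA read.

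Some other classes had smaller ratios of the summed level than the members and some had larger ones. Ribosomal RNA reads summed to 2391 to 3050 CPM in the controls and 5368 to 7383 CPM after 4-NP, and repeats to 6613 to 7979 against 10773 to 13314 CPM, in both cases without overlap. The snoRNA sum, from the RNAs that guide modification of ribosomal RNA, was 1300 to 1829 against 1527 to 3590 CPM, and the snRNA sum 327 to 430 against 244 to 814 CPM, and these overlapped. The class of other Rfam RNAs summed to 596 to 1065 against 2428 to 18246 CPM, a ratio of 10.1 where all members had 5.06. Among the Rfam families summed here, 3 also had a larger ratio than the members. Y RNA, the small RNA of the Ro particle, had 224, 385 and 749 CPM against 1067, 17384 and 2740 CPM with 4-NP, a ratio of 15.6. Vault RNA, from the vault particle, had 4.70 to 8.01 against 216 to 371 CPM, a ratio of 50.7. The family of eukaryotic large subunit ribosomal RNA had 41.5 to 57.5 CPM against 203, 513 and 239 CPM, a ratio of 6.15. Y RNA and this ribosomal RNA were highest in 4-NP sample 2, as was rno_piR_001199, where most catalogued members were lowest. Whether any member takes its reads from these RNAs was not tested.

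**Figure D4:**
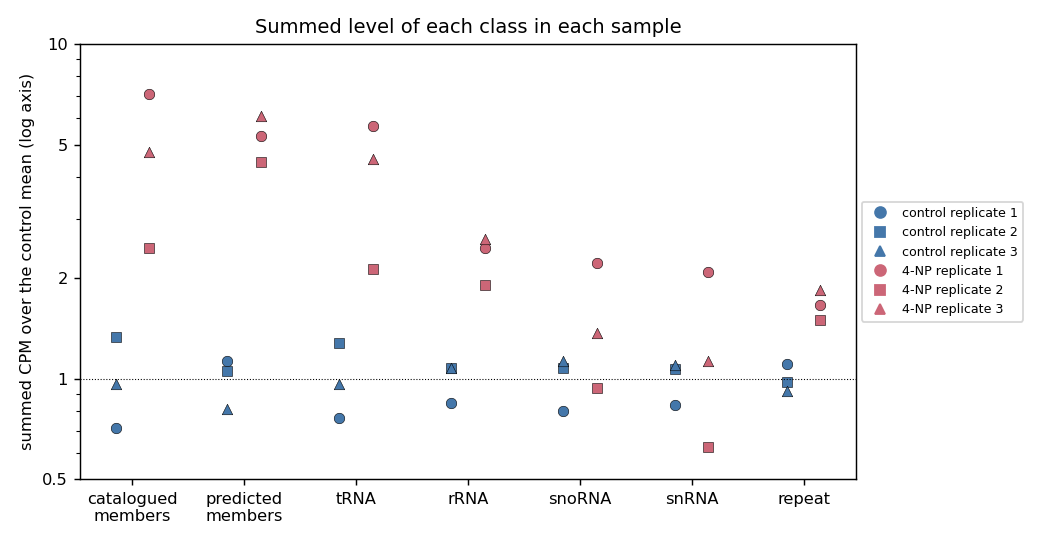
Summed level of the catalogued members, the predicted members and 5 other classes of reads in each sample, divided by the mean of the 3 controls (vertical, log axis), with controls in blue and 4-NP samples in red and the replicate number given by the marker. The catalogued members and tRNA show the same order of all 6 samples, with 4-NP sample 2 well under the other 4-NP samples, while the 4-NP samples of the predicted members lie closer together.

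The numbers in the names of the predicted rows carried a pattern that the ratio did not use. The meaning of this numbering is not given in the sources used here. In bins of 25 numbers, 10 of 14 rows from 101 to 125 and 10 of 15 from 126 to 150 were members, and 11 of 22 from 376 to 400, against 79 of 327 predicted rows in all, or 24.2%. In contrast, 1 of 26 rows from 201 to 250 and 7 of 85 from 426 to 550 were members. These bins were singled out after their values were seen. Of the 79 predicted members, 43 (54.4%) had another member at the next number up or down, and 43 of the 248 predicted rows that were not members (17.3%) had a member there. The longest unbroken run was novel_pir383 to novel_pir387.

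The 5 rows of that run differed in level. novel_pir383 had 10.7 ± 1.21 against 37.8 ± 2.08 CPM (SD, n = 3 each), while novel_pir384 had 13, 25 and 25 control reads against 51, 50 and 72 with 4-NP. novel_pir385 had 14, 32 and 16 against 52, 41 and 40 reads and novel_pir387 had 26, 45 and 26 against 68, 47 and 77. novel_pir386 was the row listed at 0 in 4 of the 6 samples. Another pair of runs, novel_pir264 with novel_pir265 and novel_pir267 with novel_pir268, joined rows of very different ratios. novel_pir265 and novel_pir267 are among the members with the largest ratios, whereas novel_pir264 is the third closest to the limit and novel_pir268 had a ratio of 2.11. Neighbours by number thus need not share a ratio. Of the 97 catalogued rows with a mean of 10 reads or more, 21 were members. In number ranges of unequal width, these were 3 of 14 rows from 0 to 999, 3 of 7 from 1000 to 4999 and 9 of 17 from 5000 to 5999. Higher up they were 1 of 1 from 6000 to 9999, 3 of 23 from 10000 to 19999 and 2 of 35 from 20000 to 39999. In these last 2 ranges 12 and 18 rows were at 0.5 times the control level or less, of 36 such catalogued rows in all.

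**Figure D5:**
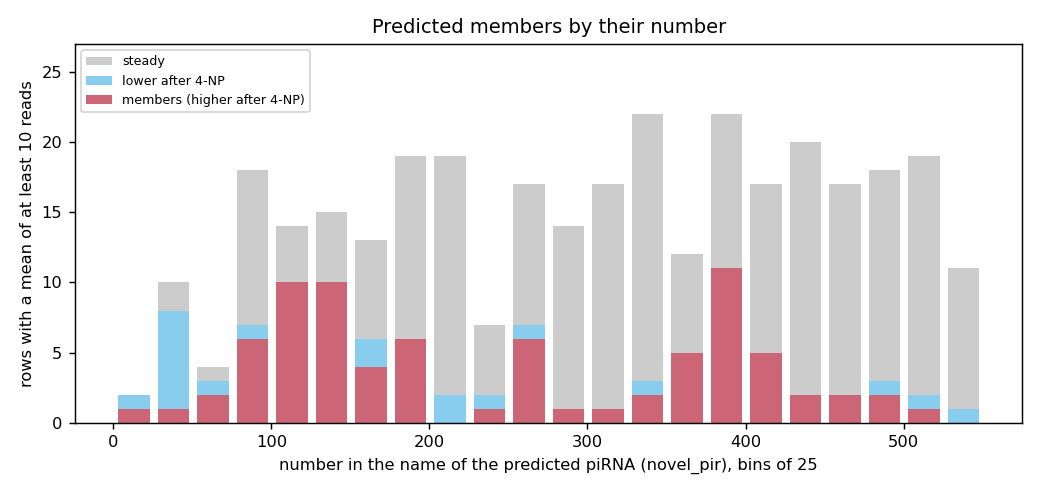
Number of predicted piRNA rows with a mean of 10 reads or more (vertical) by the number in their name in bins of 25 (horizontal), split into members, rows lower after 4-NP and steady rows. Members make up most of the rows from 101 to 150 and 11 of 22 from 376 to 400, and 0 of 19 from 201 to 225.

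The table holds for each sample a second column, named for molecular identifiers. In the catalogued rows it was 1 wherever there were reads, whatever their number, so it does not count molecules. In the predicted members it ran from 1 to 12 and was never above the read count. Over the 39 predicted members with reads in all samples it averaged 2.01 in the controls and 2.74 after 4-NP, higher after 4-NP in 27 rows, equal in 11 and lower in 1. Over all 251 predicted rows with reads in all samples the averages were 2.05 and 2.28, with 92 rows higher after 4-NP, 130 equal and 29 lower. The members were chosen for more reads after 4-NP, and whether this value follows the number of reads was not tested. novel_pir267, for example, had 1 in each control and 3, 2 and 4 after 4-NP, whereas novel_pir180 had 6, 4 and 6 against 5, 5 and 4 in spite of its 15.0-fold ratio of reads.

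In edgeR's quasi-likelihood test of all rows other than mature miRNAs, 14.9% of 738 tested rows were higher after 4-NP at a Benjamini-Hochberg adjusted p under 0.05, and 15% of the 460 tested piRNA-annotated rows, with 69 higher and 42 lower. Of the 100 members, 96 passed the filter on low counts and 52 of them were called higher, which the choice of members fixes in direction and from which nothing is read. With DESeq2 the piRNA-annotated calls were 51 higher and 52 lower. Its size factors came from the rows other than mature miRNAs and gave a median log2 fold change of 0.07 over them. With TMM factors computed from those rows the piRNA-annotated calls were 48 higher and 46 lower. These TMM factors brought the median log2 fold change over all tested rows from 0.46 to 0.06. Of the 738 rows behind them 460 were piRNA-annotated, so they pull the piRNA-annotated total toward the control level. A test of that total on these factors therefore cannot show whether it changed. On the same factors all piRNA-annotated rows together had 1.02 times the control level (exact permutation test, two-sided p = 1), and 68 of the 100 members still had a ratio of at least 2. Levels per mature miRNA read in turn take the mature miRNA total as equal between the groups, which was not tested. The number of piRNA-annotated rows called higher was 106 without 4-NP sample 2, 34 without 4-NP sample 3 and 43 without control sample 3. Without 4-NP sample 1, 74 of the 100 members met the rule, and without 4-NP samples 2 or 3 the numbers were 96 and 89.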

How the data were processed

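From 3 control and 3 4-NP samples, RNA of 18 to 30 nt was cut from a gel and sequenced after ligation of adapters that carry molecular identifiers. The authors deposited read counts per small RNA without normalization, and a second value per sample, treated as a score. HISAT2 and DESeq2 are named in the submitters' processing notes. The aligner for small RNA, the piRNA catalogue, the prediction of piRNAs and the genome build are not given in the sources used here, and sequences and positions of the rows were not used here. Treated columns were matched to treated samples by number. The 4 rows of exon, intron, intergenic and repeat totals (3.52 to 5.91% of reads) stayed out of library sizes and tests. Levels are counts over the sample's sum of mature miRNA counts, as CPM. Tests used R 4.3.3 with edgeR 4.0.16 (quasi-likelihood F test, two-sided, filterByExpr, mature miRNA sums with TMM factors, no replicate block), with DESeq2 1.42.0 and limma 3.58.1 as alternatives. Of these only the edgeR fit was tried on simulated data, there without TMM factors. Tables were made with Python 3.11.15.

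The members and lists were chosen with earlier results of these data known. The text names the 10 members with the highest 4-NP level, the 6 with the largest ratio, the 6 with the widest gap between the groups and the 6 with the widest spread among 4-NP samples (rows with an infinite value and the next 6 with a finite value), the 3 rows just inside and outside the limit and the nearest rows by level. Others were named after their values were seen.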

Additional observations from a re-analysis of the deposited data

How the results depend on the processing

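The 100 rows became 50 at a mean of 50 reads or more, 188 at a ratio of 1.5, 63 at a ratio of 3 and 65 with 4-NP sample 2 as the only treated sample, a setting chosen after seeing the data. Over the omission of each sample they numbered 81 to 128, the members without overlap 80 to 91, the ratio of the summed level 4.56 to 5.798 and that of all piRNA-annotated reads 1.26 to 1.49. Leaving out a sample cannot lower the number of the 100 members without overlap, 78 with all samples, so its range does not show stability. The summed ratio was 3.78 with TMM factors of the other small RNAs and 3.49 without the 5 most abundant members. Among members with a mean of 50 reads or more, 46 were without overlap. In edgeR, piRNA-annotated rows called higher and lower numbered 22 and 24 with a replicate block. They numbered 56 and 12 when 10 counts were required in every sample, a filter that removes any row with fewer reads in a 4-NP sample. Over the omission of each sample, higher calls ranged from 34 (without 4-NP replicate 3) to 106 (without 4-NP replicate 2), with 43 without control replicate 3. Lower calls ranged from 30 to 44. Whether the replicate numbers pair the samples cannot be decided from 3 samples per group. Deviations from the group means of samples 1, 2 and 3 correlated at -0.043, -0.059 and 0.182. Samples of unlike number correlated at -0.129 to 0.199. When samples were left out, the ratio of novel_pir113 ranged from 0.736 (without 4-NP sample 1) to 4.31. novel_pir93 and novel_pir20 were listed at 0 in all controls, so their values are lower bounds with 9 reads in each control, of 0 to 8.09 and 0.806 to 4.30. Without 4-NP sample 3 these bounds give no direction, since novel_pir93 then had no reads in any sample and novel_pir20 had 14 reads in 1. The cause was not tested beyond the smaller number of samples or rows. With few reads, a row listed at 0 limits a ratio to a bound.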
